A study of Mus musculus with 6 samples.

Results

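The transcriptome described here is that of mouse undifferentiated pleomorphic sarcoma cells carrying a scrambled hairpin RNA (shSCR), the control cells of a study of periostin. Its members are the 3 shSCR libraries of the 6 in the series and, within them, the 11658 of 35727 genes in the deposited table that reached a level of at least 1 CPM (counts per 1000000 counts of the library) in all 3. The cells belong to 1 line, called p53KO Ccne1 OE, which began as mesenchymal stem cells of female C57/Bl6 p53KO mice. A retroviral vector gave them Ccne1, the gene of the cell-cycle regulator cyclin E1, and the red fluorescent protein RFP. They were passaged through female wild-type mice under the skin, expanded for a short time in culture, given a viral vector with the scrambled hairpin, and transplanted again. Tumour cells were then taken from the tumours by sorting on RFP. Every shSCR library therefore shares the p53KO background, the Ccne1 vector and the hairpin vector, and the sample titles call this group Postn-WT. The age of the mice, the promoter of the vectors and the number of clones in the line are not given in the labels, which also do not say whether the 3 libraries came from separate tumours or mice. The SD over the libraries (n = 3, written after ±) may therefore be technical. Nothing is compared with the Postn hairpin cells here, and no test between groups was made.

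Undifferentiated pleomorphic sarcoma is a soft-tissue tumour without a defined line of differentiation, whose cells often resemble fibroblasts. Fibroblasts and their relatives build the fibrillar matrix: type I collagen is a heterotrimer of the Col1a1 and Col1a2 chains, type III collagen a homotrimer of Col3a1, and both are modified and folded in the endoplasmic reticulum before they are secreted and crosslinked. Periostin, encoded by Postn, is a matricellular protein that binds collagens, fibronectin, tenascin-C and integrins. Pdgfrb encodes a receptor for platelet-derived growth factor, and Cd34 a surface sialomucin of many mesenchymal and haematopoietic progenitors.

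Among the most abundant transcripts were genes with and without a TATAAA box close to the annotated start, and the promoters of 6 of them are shown for this contrast. Each is the 100 bases before an annotated RefSeq start (GRCm38.p6), 5′ to 3′ on the gene's strand. Capitals mark TATAAA on that strand and CCAAT in either orientation (ATTGG is its reverse).
Postn (chr3:54361007-54361106, plus strand): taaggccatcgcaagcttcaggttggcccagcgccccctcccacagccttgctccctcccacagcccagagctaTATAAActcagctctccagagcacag
S100a4 (chr3:90603670-90603769, plus strand): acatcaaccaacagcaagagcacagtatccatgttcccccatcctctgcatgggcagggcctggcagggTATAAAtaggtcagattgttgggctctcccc
H2-D1 (chr17:35262994-35263093, plus strand): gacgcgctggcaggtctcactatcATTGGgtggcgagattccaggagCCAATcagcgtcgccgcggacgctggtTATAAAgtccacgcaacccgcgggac
B2m (chr2:122147587-122147686, plus strand): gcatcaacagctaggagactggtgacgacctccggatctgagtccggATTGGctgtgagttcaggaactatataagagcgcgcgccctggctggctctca
Col1a2 (chr6:4505518-4505617, plus strand): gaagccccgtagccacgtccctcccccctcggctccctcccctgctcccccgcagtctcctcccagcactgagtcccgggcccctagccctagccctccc
Col3a1 (chr1:45311438-45311537, plus strand): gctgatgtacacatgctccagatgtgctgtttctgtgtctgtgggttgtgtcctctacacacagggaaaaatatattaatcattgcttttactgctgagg

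The TATAAA of Postn began at position -26 from the start, that of S100a4 at -31 and that of H2-D1 at -26. A further annotated start of Postn had no TATAAA in the window searched. B2m held the shorter TATAA, and no TATAAA lay in the windows of Col1a2 and Col3a1, which says only that these letters are not there. TATAAA was searched on the gene's strand between positions -40 and -16. A gene was counted if any of its annotated starts had it. Of the 100 protein-coding genes with the highest level per kilobase, 60 had a promoter sequence. TATAAA occurred in 4 of these 60 genes, S100a4, H2-D1, Vim and Postn (6.67%, exact 95% interval 1.85% to 16.2%). With the 100 highest protein-coding genes by CPM instead, TATAAA occurred in 3 of the 69 with a promoter (4.35%, 0.906% to 12.2%). It occurred in 5 of 74 expressed matrix genes with a promoter, Ccn1, Ecm1, Igfbp4, Postn and Slit2 (6.76%, 2.23% to 15.1%). The share was 1.21% over all expressed protein-coding genes, 109 of the 9005 with a promoter, and 2.41% over all 27025 genes of the promoter table. CCAAT in either orientation lay within 250 bases of a start in 23 of the 60 genes (38.3%) and in 41.1% of all expressed protein-coding genes with a promoter.

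Library totals were 20235147, 20376554 and 19847860 counts for replicates 1, 2 and 3, so that 1 CPM stood for 19.8 to 20.4 counts. A gene with 0 counts in all 3 could still have had a level of up to 0.0496 CPM, the value of 3 counts over the 3 totals. Of 21793 protein-coding genes, 11394 passed 1 CPM in every library (52.3%), the share against which the counts of list members below can be read. The 105 passing genes nearest the threshold had a lowest library under 1.1 CPM, and 109 genes fell short with a lowest library of at least 0.9 CPM. Of the expressed genes 9147 were at a mean of at least 10 CPM, 2131 at 100 or more and 97 at 1000 or more. The 10 genes with the most counts held 8.05 ± 0.34% of a library and the 1000 with the most 55.0 ± 0.29%. Libraries were alike, with Spearman correlations over expressed genes of 0.994, 0.994 and 0.994 as a description, but their counts differed by 9.76 to 10.7 times the sampling variance, so none was a copy of another.

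Levels of different genes are ranked below as CPM per kilobase of exon. Ranks run from 1 (the highest) to 11641, the expressed genes with a known length. Values and list sums given in CPM do not account for length, also where genes stand side by side. The elongation factor gene Eef1a1 stood at 4469 ± 33.8 CPM per kilobase (rank 3), and among other nuclear protein-coding genes outside the ribosome the next were Lgals1, which encodes the secreted lectin galectin-1 (2543 ± 116), B2m, the light chain of class I major histocompatibility complex (MHC) molecules (1639 ± 33.9), and S100a4, a calcium-binding protein also called fibroblast-specific protein (1468 ± 179). Col1a1 (rank 21), Col1a2 (25) and Col3a1 (26) followed the elongation factor Eef2 (18). Fn1, which encodes fibronectin, ranked 49 at 760 ± 18.9 CPM per kilobase, and the transcription factor gene Jun ranked 50 at 756 ± 132. The other members of the 20 highest were Tpt1, Ptma, Actg1, Tuba1b, Gapdh, S100a11, Hsp90ab1, H2-D1, Ubb and Ftl1, genes of the cytoskeleton, glycolysis, chaperoning, antigen presentation and iron storage among them. Of the 100 genes of any class with the highest level per kilobase, 30 were ribosomal protein genes, 11 were mitochondrial and 12 were annotated pseudogenes. Matrix genes, that is members of the collagen, matrix glycoprotein, proteoglycan or basement membrane lists, made up 7. Of the 85 ribosomal protein genes 82 passed, led by Rplp1 (2315 ± 182 CPM per kilobase), Rps2 (1890 ± 50.0), Rplp0 (1620 ± 72.9) and Rps3a1 (1430 ± 52.6). All 40 cytoskeleton genes passed, with Actb, the gene of beta-actin, at 704 ± 33.5 CPM per kilobase beside Actg1, Tuba1b and Vim. Glycolysis genes passed in 22 of 23 cases, led after Gapdh by Pkm (494 ± 29.8), Eno1 (438 ± 10.9) and Pgk1 (427 ± 46.0 CPM per kilobase).

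**Figure D1:**
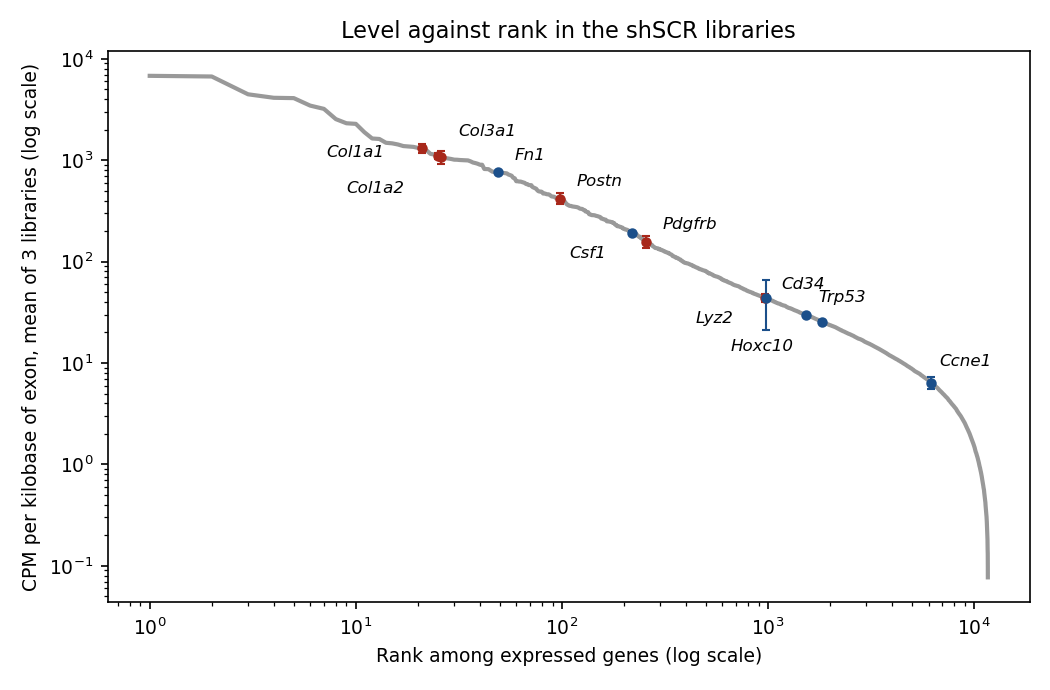
Mean level in CPM per kilobase of exon against rank among the expressed genes of the shSCR libraries, both on log scales. The line is all genes, red points are the 6 markers of the sarcoma cells, blue points other genes named in the text, and bars are the SD over 3 libraries. Col1a1, Col1a2 and Col3a1 lie at ranks 21 to 26, Postn at 98, Pdgfrb at 256, Cd34 at 961 and Ccne1 at 6197.

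All 6 markers were expressed and lay among the 1000 highest genes per kilobase, although Cd34 ranked 1024 without replicate 3. Col1a2 had the most counts of any gene in every library, with 13156, 14931 and 13176 CPM in replicates 1, 2 and 3. Col1a1 had 7979, 9537 and 8217 CPM, highest in replicate 2 like Col1a2. Col3a1 had 8979, 10475 and 11999 CPM, and so was highest in replicate 3. Postn, which the scrambled hairpin does not target, had 4115, 3618 and 3201 CPM (419 ± 52.6 CPM per kilobase, rank 98), with replicate 1 the highest. Pdgfrb had 721, 923 and 949 CPM (rank 256), lowest in replicate 1, while Cd34 had 328, 287 and 349 CPM (rank 961). Each of these 6 markers of the labelled mesenchymal sarcoma type was above the level of the median expressed gene, 7.04 CPM per kilobase. They were chosen with earlier results of these data known, so this is no test of the type.

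The order of the 3 collagen chains turned on the length used. With the union of exons Col1a1 stood at 1307 ± 128, Col1a2 at 1107 ± 82.0 and Col3a1 at 1068 ± 154 CPM per kilobase, and the Col1a1 to Col1a2 ratio was 1.15, 1.21 and 1.18 in replicates 1, 2 and 3. With the principal transcript, chosen after the values were seen, the union of 12426 bases for Col1a2 became 5348 and the ratio fell to 0.562; with the mean transcript length it was 0.801. Which chain was the more abundant transcript cannot be told from these counts. Postn moved from rank 98 to 48 with the principal transcript, and Cd34 from 961 to 454. Col1a2 moved from 25 to 11 and Col3a1 from 26 to 20. In the other direction, Pdgfrb fell from 256 to 374 and Col1a1 from 21 to 29. With the mean transcript length Pdgfrb fell to 634, while the other markers moved up.

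The genes of the collagen, matrix glycoprotein, proteoglycan and basement membrane lists together held 8.03 ± 0.34% of all counts, and the collagens 4.83 ± 0.32%. Of 44 collagen chain genes 23 were expressed, and 12 of these were among the 1000 highest per kilobase. In type VI, which forms beaded filaments around cells, Col6a1 reached 537 ± 49.6 CPM per kilobase, Col6a2 240 ± 25.3 and Col6a3 177 ± 11.4. In type V, which sets the diameter of type I fibrils, Col5a1 stood at 279 ± 6.99 and Col5a2 at 183 ± 10.9 CPM per kilobase. The basement membrane chains of type IV were far lower, with Col4a1 at 17.0 ± 6.65 and Col4a2 at 10.5 ± 4.47 CPM per kilobase. Col2a1, the fibrillar collagen of cartilage, had 16 counts in all, and Col13a1, Col19a1, Col6a6 and Col9a1 had 0.

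Of 67 matrix glycoprotein genes 47 were expressed. Fn1 had 8917, 8638 and 9075 CPM, a narrow range, and Sparc, a collagen-binding matricellular gene, had 1974, 2405 and 2068 CPM (rank 71). After these and Postn came Fbln2, a fibulin of elastic fibres and basement membranes, at 331 ± 16.5 CPM per kilobase. Tnc (tenascin-C) had 427, 334 and 451 CPM. Eln, which encodes elastin, was low and uneven, with 1.48, 9.67 and 15.6 CPM, although the fibrillin gene Fbn1, whose product forms the scaffold of elastic fibres, had 783, 971 and 782. Of 22 proteoglycan genes 14 were expressed, led per kilobase by Hspg2 (perlecan, 200 ± 9.09), Esm1 (endocan, 161 ± 20.7), Bgn (biglycan, 109 ± 19.5) and Vcan (versican, 55.6 ± 3.11). The basement membrane list had 18 of 21 expressed, led by Col18a1 (227 ± 25.2 CPM per kilobase), Hspg2 and the laminin chains Lamb1 (84.2 ± 2.12) and Lamc1 (61.5 ± 4.93), with 0 counts for Lama1 and Lamc3.

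**Figure D2:**
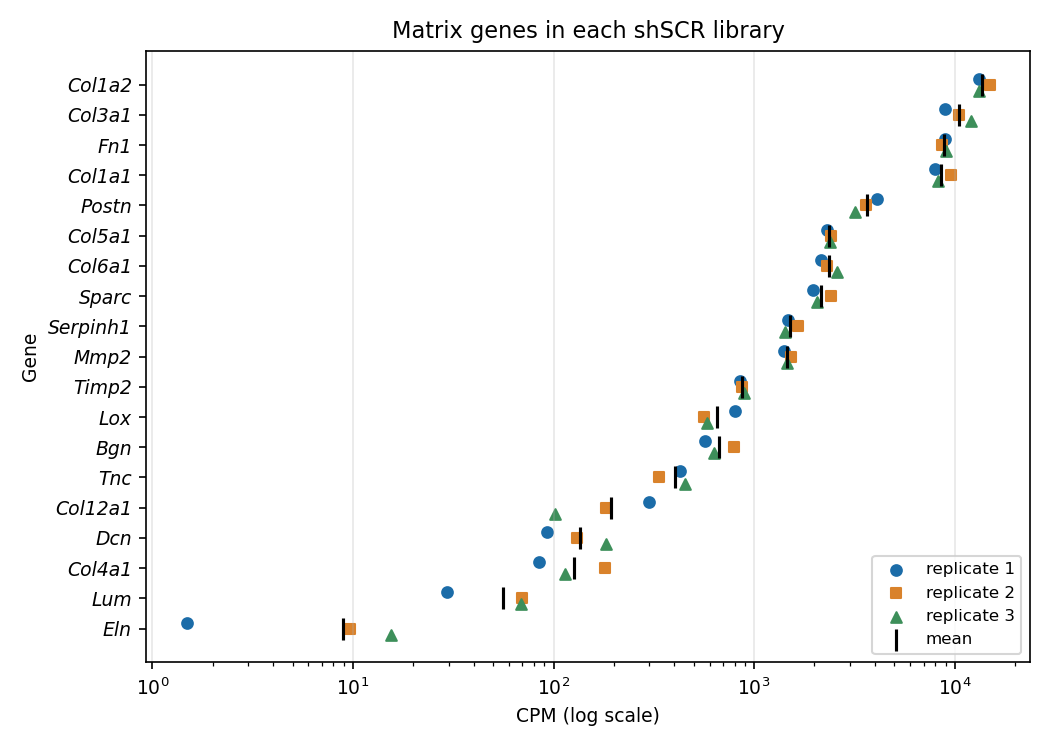
Levels of 19 matrix genes in CPM (log scale) in each of the 3 shSCR libraries, with the mean as a black bar. Fn1 and Col5a1 vary little, while Lum, Dcn and Eln are lowest in replicate 1, Col12a1 is highest there, and Col4a1 is highest in replicate 2. Levels of different genes are not comparable in CPM, which does not account for length.

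Genes of collagen processing were expressed in 27 of 30 cases, 14 of them among the 1000 highest per kilobase. Serpinh1, the collagen chaperone HSP47, had 1471, 1653 and 1426 CPM (621 ± 49.3 CPM per kilobase, rank 60), and P4hb, a subunit of prolyl 4-hydroxylase, had 999, 1023 and 965. The crosslinking enzyme Lox had 806, 561 and 585 CPM, highest in replicate 1. The remaining leader of the list was Pcolce, an enhancer of procollagen cleavage. Among 22 matrix metalloproteinase genes 13 were expressed. Mmp2, a gelatinase, had 1405, 1522 and 1463 CPM (434 ± 17.4 per kilobase), and Mmp14, the membrane-bound activator of its product, had 935, 1008 and 938 (161 ± 6.91 per kilobase). Mmp11, or stromelysin-3 (25.7 ± 4.06), and Mmp10, or stromelysin-2 (7.44 ± 4.21 CPM per kilobase), came next. Mmp9, the other gelatinase, was at 6.83 ± 1.30 CPM per kilobase. Of the inhibitors, Timp2 stood at 223 ± 5.76, Timp1 at 133 ± 5.95 and Timp3 at 10.4 ± 0.44 CPM per kilobase, and Timp4 had 0 counts. The Mmp2 to Timp2 ratio per kilobase was 1.92, 2.03 and 1.89 across the libraries. In the list of the plasminogen system and related serpins 6 of 10 genes were expressed, among them Serpinf1, which encodes the anti-angiogenic factor PEDF (332 ± 33.0 CPM per kilobase), and the activators Plau (190 ± 21.7 CPM per kilobase) and Plat (62.9 ± 3.18), and Plg, the gene of plasminogen itself, had 0 counts. The ADAMTS proteases and their relatives passed in 13 of 24 cases, led by the procollagen proteinases Adamts14 (50.4 ± 4.66) and Adamts2 (30.8 ± 5.72) and the proteoglycan-cleaving Adamts4 (25.2 ± 1.38) and Adamts1 (15.1 ± 2.20 CPM per kilobase). Of 12 cathepsin genes 9 passed, with the lysosomal proteases Ctsd (107 ± 5.22), Ctsz (94.3 ± 5.33), Ctsl (82.8 ± 6.35) and Ctsb (82.4 ± 2.35 CPM per kilobase) the highest.

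Fibroblast markers were expressed in 17 of 20 cases, and mesenchymal stem cell markers in 16 of 18. Vim, the mesenchymal intermediate filament gene, stood at 713 ± 66.7 CPM per kilobase, Pdpn (podoplanin) at 78.4 ± 12.6 and Ly6a, which encodes the progenitor antigen Sca-1, at 82.3 ± 28.3. Ly6a had 138, 74.8 and 84.6 CPM. Other leading mesenchymal stem cell markers were Itgb1, Cd44, the hyaluronan receptor gene (64.6 ± 3.78), and Nes, the gene of nestin (50.7 ± 4.58 CPM per kilobase). Thy1, a marker often used for mesenchymal stem cells, fell short of the threshold in replicate 3, with 3.90, 1.23 and 0.756 CPM, and Ngfr had 0 counts. Pi16 and Mfap5, markers of a quiescent adventitial fibroblast type, did not pass either.

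Lists of differentiated mesenchymal lineages passed in part, each in at most 50.0% of its members, against 52.3% of all protein-coding genes. Of 15 skeletal muscle genes only Des, the gene of desmin, passed, with 11.02, 10.9 and 5.44 CPM, and Myod1, Myf5, Myf6, Pax7, Mymk and Mymx had 0 counts. The osteoblast list had 6 of 12 expressed. It held the regulator Runx2 (97.0, 83.3 and 92.7 CPM) and Spp1, the gene of osteopontin (498, 458 and 454 CPM), but also Col1a1 and Sparc, which fibroblasts express as well, and Bglap and Dlx5 had 0 counts. Sox9, a chondrocyte regulator, had 58.9, 52.95 and 55.8 CPM, whereas Acan, Col9a1 and Matn1 had 0 counts. Of 13 chondrocyte genes 3 passed, the others being Hapln1 (1.17 ± 0.28) and Col11a2 (0.198 ± 0.064 CPM per kilobase). Smooth muscle and pericyte genes passed in 6 of 12 cases. Acta2, the smooth muscle actin of myofibroblasts, had 181, 181 and 99.7 CPM, lowest in replicate 3, while Smtn, the gene of smoothelin, had 164, 156 and 160. Myl9, a myosin light chain gene, stood at 16.6 ± 2.80 and Notch3 at 2.92 ± 1.29 CPM per kilobase. The smooth muscle myosin gene Myh11 had 5 counts in all, and Myocd had 0. The tenocyte list had 3 of 6 expressed, Tnc, which is not restricted to tendon, and the regulators Scx (2.25 ± 0.21) and Mkx (0.704 ± 0.132 CPM per kilobase), with Tnmd at 0 counts. Schwann cell and neural crest genes passed in 2 of 8 cases, Tfap2a (2.86 ± 0.18) and Erbb3 (0.352 ± 0.015 CPM per kilobase), with Foxd3 at 0 counts. Only 2 of 10 adipocyte genes passed, Zfp423 and Lpl, and Adipoq, Cidec and Retn had 0 counts. None of 11 epithelial genes passed, with the highest, Cdh1, at 1.09 CPM and Esrp1, Krt18 and Krt5 at 0 counts. With a threshold of 0.5 CPM the skeletal muscle, chondrocyte and epithelial counts became 2, 6 and 1, at 2 CPM the adipocyte count became 0, and without replicate 3 the epithelial count became 1.

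**Figure D3:**
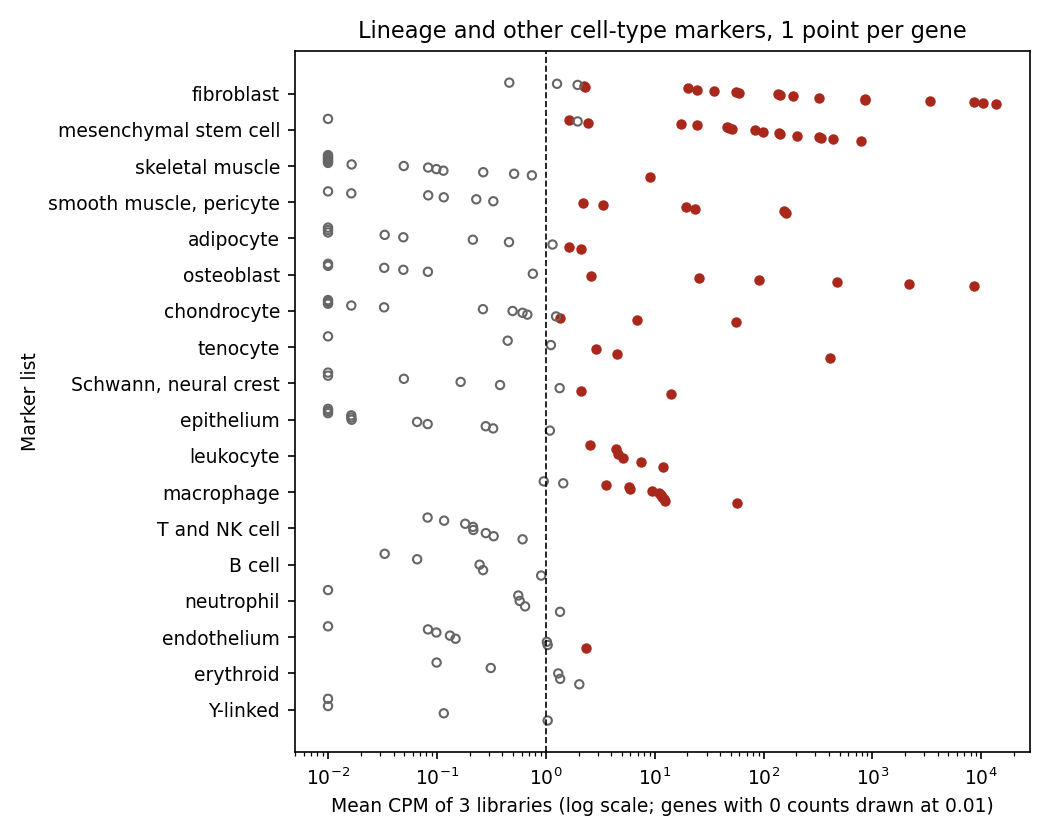
Mean CPM over the 3 shSCR libraries (log scale) of each gene in 18 marker lists, 1 point per gene, with genes of 0 counts drawn at 0.01 CPM. Filled red points passed 1 CPM in every library, open points did not, and the dashed line is at 1 CPM. Filled points are frequent in the fibroblast, mesenchymal stem cell, leukocyte and macrophage rows, at lower levels in the last 2, and absent from the epithelial, T and NK cell, B cell, neutrophil, erythroid and Y-linked rows.

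Hox genes, which record the position of a cell along the body axis and within the limb, were expressed as a block. All 22 genes of paralogue groups 4 to 10 passed, with a summed level of 414 CPM. Of groups 11 to 13, whose members act in the distal limb and the caudal body, 1 of 9 passed, Hoxd11, at 3.06, 3.24 and 1.56 CPM. Groups 1 to 3 had 5 of 8 expressed, with Hoxb1 and Hoxd1 at 0 counts. Hoxa11, of group 11, also had 0 counts. The highest members were Hoxc10 (25.6 ± 1.03 CPM per kilobase), Hoxd9 (19.6 ± 0.10), Hoxd8 (14.8 ± 1.66) and Hoxc6 (14.1 ± 2.02). Hoxc10 had 50.8, 46.9 and 49.2 CPM, so that the libraries were close together. The sum over all Hox genes was 468, 447 and 455 CPM, a ratio of 1.05 between the highest and the lowest library.

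**Figure D4:**
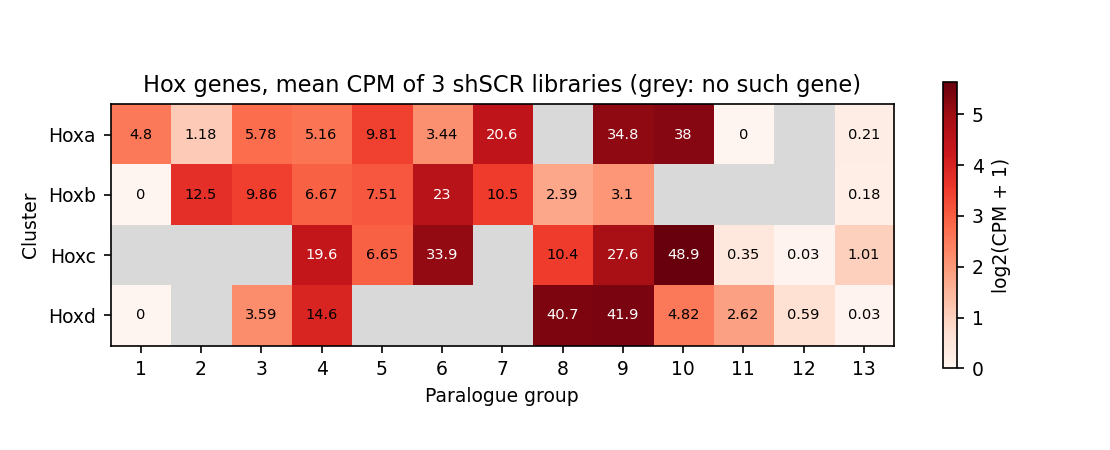
Hox genes by cluster (rows) and paralogue group (columns), with the mean CPM over 3 shSCR libraries printed in each cell and coloured by log2(CPM + 1); grey cells have no gene. Groups 4 to 10 are filled in every cluster that has a gene there, and groups 11 to 13 reach at most 2.62 CPM.

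Among other position genes 19 of 35 passed. Pitx1, a hindlimb regulator, had 40.3, 39.7 and 38.0 CPM, while Tbx4 and Tbx5, regulators of the hindlimb and the forelimb, had means of 0.066 and 0.033 CPM. Tbx15, expressed in limb and trunk mesenchyme, had 97.2, 93.7 and 104 CPM. The limb mesenchyme genes Prrx2 (45.3 ± 2.99 CPM per kilobase) and Prrx1 (12.5 ± 1.22) were also expressed, as was Tbx3 (12.7 ± 0.67 CPM per kilobase), and Alx1, Lmx1b, Tcf21 and Wt1 had 0 counts.

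Among 152 listed transcription factors, the most abundant transcripts included many of early-response genes, which are induced within minutes of a stimulus. The list was a chosen set that held such genes, and transcription factors outside it were not ranked. Of the 152 listed, 117 were expressed. Jun had 2441, 1978 and 2818 CPM, Fos 521, 441 and 663 (230 ± 47.9 per kilobase) and Fosb 762, 565 and 986, each lowest in replicate 2 and highest in replicate 3. The rest of the 15 highest per kilobase were Ybx1 (461 ± 19.5), Jund (296 ± 33.0), Junb (272 ± 9.60), Hmga1 (250 ± 12.8), Atf4 (216 ± 4.51), Klf4 (88.1 ± 10.1), Egr1 (87.8 ± 3.55), Aebp1 (87.5 ± 7.26), Zfp36 (84.6 ± 15.4, an RNA-binding protein of the early response that the list included), Creb3l1 (71.7 ± 3.90), Klf6 (66.0 ± 8.41) and the mesenchymal regulator Twist1 (64.6 ± 2.30). Of 9 heat shock genes, a list written after values were seen, 8 passed, led by Hspa8 (616 ± 56.4), Hsp90aa1 (259 ± 26.6), Hspa1b and Hspd1 (196 ± 7.43 CPM per kilobase). Hspa1b had 698, 386 and 605 CPM, and Dnajb1 634, 339 and 509, with replicate 2 again the lowest. The cells were taken out of tumours and sorted before RNA extraction, and the part of that handling in these levels was not tested.

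Of the 40 chemokine genes 13 were expressed, and 8 of these were highest in replicate 1, 2 in replicate 2 and 3 in replicate 3. Over all 11658 expressed genes these counts were 3943, 4295 and 3420. Ccl2, a monocyte attractant, had 110, 117 and 154 CPM (112 CPM per kilobase on average), Cxcl10, which interferon induces, had 119, 112 and 163, and Ccl7, a relative of Ccl2, had 34.6, 33.6 and 47.3, and these were the 3 highest in replicate 3. Cxcl1, a neutrophil attractant, had 62.2, 42.9 and 61.2 CPM, and Cxcl12, a ligand of Cxcr4, had 194, 119 and 113, both highest in replicate 1. Among 52 cytokine and colony-stimulating factor genes, a list that by its naming rule also holds the receptors Il7r, Il21r and Il23r, 15 were expressed. Mif stood at 411 ± 28.1 CPM per kilobase, and Csf1, which encodes the main growth factor of macrophages, had 1059, 1004 and 983 CPM (rank 219). Il34, the other ligand of the same receptor, had 45.3, 48.1 and 52.0 CPM, and the ratio of Csf1 to Il34 per kilobase was 7.81 ± 0.83. The alarmin Il33 had 56.6, 26.8 and 26.4 CPM. Il6 was below the threshold with 24 counts in all.

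In the transforming growth factor family 16 of 34 genes passed, led by Fstl1, a secreted follistatin-like protein (95.0 ± 1.78 CPM per kilobase), Inhba, the activin A subunit (57.8 ± 2.41), the protease Bmp1 (37.0 ± 0.97) and Tgfb1 (35.6 ± 1.92). The Wnt family had 7 of 19 expressed, led by Wnt10b (22.2 ± 1.48), Wnt10a (20.9 ± 3.62), Wnt7b (11.8 ± 2.60) and Wnt9a (10.9 ± 1.54 CPM per kilobase). Of Wnt modulators 3 of 14 passed, Dkk3 (47.8 ± 2.22 CPM per kilobase), Dkk2 (44.8 ± 5.22) and Notum, and Dkk1, Rspo3, Sfrp1, Sfrp5 and Wif1 had 0 counts. Fibroblast growth factors were low, with 4 of 22 expressed. These were Fgf7 (9.21 ± 2.15), Fgf11 (1.62 ± 0.45), Fgf2 (1.57 ± 0.18) and Fgf10 (0.679 ± 0.40 CPM per kilobase). Ligands of the epidermal growth factor receptor family passed in 5 of 11 cases, led by Hbegf (13.4 ± 1.00), Nrg1 (5.94 ± 0.84), Ereg (2.83 ± 0.70) and Btc (0.561 ± 0.086 CPM per kilobase). Of 19 platelet-derived, vascular and related growth factors 13 passed, led by Angptl2 (54.4 ± 3.76), Vegfa (41.9 ± 3.33), Vegfc (20.02 ± 0.87) and Vegfb (18.4 ± 1.55 CPM per kilobase). Class 3 semaphorins, secreted guidance factors, passed in 6 of 7 cases, with Sema3a (10.6 ± 0.37) the highest, before Sema3b (3.74 ± 0.43), Sema3c (1.62 ± 0.09) and Sema3d (1.13 ± 0.16 CPM per kilobase). Of 10 genes of the insulin-like growth factor axis 6 passed, and the binding proteins Igfbp4 (117 ± 10.3), Igfbp7 (102 ± 22.6) and Igfbp6 (54.8 ± 5.97 CPM per kilobase) exceeded Igf1 (1.98 ± 0.37) and Igf2 (0.650 ± 0.110). Igfbp3 stood at 2.93 ± 1.63, a spread that included the mean of Igf1.

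At the cell surface the receptor tyrosine kinases had 23 of 40 expressed. Axl, a receptor for Gas6 and protein S, had 1283, 1151 and 1271 CPM (rank 175), yet Gas6 itself fell short of the threshold at 0.939, 0.589 and 0.050 CPM, and Pros1, the gene of protein S, had 21.5, 17.2 and 19.3. After Axl came Pdgfrb (158 ± 22.8 CPM per kilobase), Fgfr1 (92.6 ± 3.74) and Ddr2, a collagen receptor (57.3 ± 2.53), and the Pdgfrb to Pdgfra ratio per kilobase was 8.60 ± 1.41. Integrin genes were led by Itgb1 (194 ± 13.1), Itgb5 (105 ± 7.64), Itga5, whose product pairs with the beta-1 chain to bind fibronectin (71.0 ± 1.93), and Itgav (25.4 ± 0.44 CPM per kilobase). Itgb3, another partner of Itgav, stood at 0.335 ± 0.165, and Itga11, a collagen receptor chain, did not pass. The endocytic receptor Lrp1 had 3405, 3468 and 3200 CPM (190 ± 7.92 per kilobase). It led the list of frizzled, low-density lipoprotein receptor-related and Notch genes, 13 of 22 expressed, before Notch2 (34.8 ± 1.00), its ligand gene Jag1 (30.5 ± 7.26) and Fzd2 (13.7 ± 2.43 CPM per kilobase). Ephrins and their receptors passed in 14 of 22 cases, led by Epha2 (37.1 ± 1.08), Efnb2 (30.9 ± 1.05), Ephb4 (18.2 ± 0.48) and Efna1 (10.9 ± 0.15 CPM per kilobase). Receptors of the transforming growth factor family passed in 12 of 14, led by Acvr1 (17.2 ± 0.45), Tgfbr2 (17.0 ± 1.06), Bmpr1a (15.003 ± 0.884) and Eng (11.5 ± 1.65 CPM per kilobase). Of 33 cytokine receptor genes 26 were expressed, led by Tnfrsf12a (76.2 ± 4.47), Tnfrsf1a (47.0 ± 2.22), Il1rl1 (44.8 CPM per kilobase on average), which encodes the receptor of interleukin-33, and Il6st (44.0 ± 0.59). Il1rl1 had 347, 219 and 360 CPM. Of 51 adhesion and membrane genes 38 passed, with Bsg (242 ± 14.4), Ly6e (207 ± 16.1), Cd63 (174 ± 2.84) and Bst2 (156 CPM per kilobase on average) the highest.

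Of the 33 antigen presentation and checkpoint genes 23 passed and 4 were among the 1000 highest per kilobase. These were the class I genes B2m, H2-D1 and H2-K1 and Tapbp, which encodes the loading factor tapasin (47.6 ± 4.74 CPM per kilobase). H2-D1 had 2517, 2222 and 2243 CPM and H2-K1 2374, 2059 and 2133, both highest in replicate 1 (902 ± 63.8 and 745 ± 56.0 per kilobase). Cd274, which encodes the checkpoint ligand PD-L1, was at 15.3, 11.9 and 16.2 CPM, Cd276, another member of its family, at 96.0, 113 and 101, and Cd47, a signal against phagocytosis, at 151, 142 and 152. Pdcd1lg2 had 6 counts in all. The class II genes H2-Aa (18.0, 13.8 and 12.4 CPM) and Cd74 (51.1, 33.9 and 30.4) had the same order of libraries as the summed macrophage markers, at 213, 152 and 66.3 CPM, and the part of macrophages in them was not tested.

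Genes of the model itself were all expressed. Ccne1 had 17.6, 18.8 and 14.7 CPM, or 6.40 ± 0.80 CPM per kilobase (rank 6197), close to the median gene, and counts per gene do not tell a vector transcript from that of the cell's own gene. Trp53 had 122.7, 119 and 121 CPM (rank 1530). A count over the whole gene does not show which exons were read, so it is no check of the knockout. All 26 proliferation genes passed, led by Ccnd1, the gene of cyclin D1 (97.4 ± 7.47 CPM per kilobase), Cdc20 (71.5 ± 5.51), Pcna (58.9 ± 5.74) and Mcm6. Mki67 had 450, 516 and 458 CPM and was highest in replicate 2, like 22 of the 26 and 4295 of all 11658 expressed genes. Of 21 genes that p53 induces or that inhibit cyclin-dependent kinases 18 were expressed, among them Phlda3 (36.9 ± 2.76 CPM per kilobase), Sesn2 (27.6 ± 1.41), Bax (26.8 ± 1.67), the inhibitor Cdkn2c (20.5 ± 0.75), Cdkn1a (14.7 ± 1.86) and Mdm2 (8.58 ± 0.70). The 3 that did not pass included Cdkn2a with 2 counts and Cdkn2b with 0. On chromosome 4 (GRCm38, lowest coordinate of each gene) Cdkn2a lies at 89274471 and Cdkn2b at 89306299. In the GENCODE annotation the nearest coding gene on one side, Mtap at 89137122, had 465, 399 and 374 CPM, and the nearest on the other, Dmrta1 at 89679436, had 0 counts. Further away Klhl9 had 62.0, 62.8 and 66.6 CPM, Focad 26.04, 31.4 and 24.6 and Hacd4 12.8, 20.4 and 13.7. These neighbours were chosen after values were seen, and DNA was not measured. Of 28 genes altered in or linked to sarcomas 24 passed, led by Cdk4 (99.2 ± 4.25), Fgfr1, Vgll3 (51.0 ± 6.92) and Wwtr1, the gene of the co-activator TAZ (50.2 ± 3.73 CPM per kilobase).

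Transcripts of leukocyte marker genes were detected at a low level in the RFP-sorted cells, and differed between libraries. Which cells they came from was not tested. All 6 general leukocyte genes passed, led by Tyrobp (6.63 ± 3.23), Fcer1g (5.30 ± 2.48), Laptm5 (3.18 ± 1.03) and Coro1a (2.69 ± 0.84 CPM per kilobase), with summed levels of 47.9, 36.7 and 24.4 CPM in replicates 1, 2 and 3. Of 12 macrophage genes 10 passed, with sums of 213, 152 and 66.3 CPM, and these 10 were highest in replicate 1 and lowest in replicate 3. Lyz2, the lysozyme gene of myeloid cells, was the highest with 84.2, 62.3 and 25.7 CPM, Cd14 had 16.4, 12.8 and 7.31, and Csf1r, the receptor of the Csf1 product, had 15.8, 13.5 and 6.05. No gene of the macrophage or leukocyte list was at 0 counts. T and NK cell (8 genes), B cell (5), neutrophil (5) and erythroid (5) lists had none expressed, with summed means of 2.04, 1.52, 3.13 and 5.10 CPM, and Ly6g was at 0 counts. The highest members of these 4 lists were at 0.612, 0.907, 1.35 and 2.03 CPM, in the same order. None of 4 Y-linked genes passed, with the highest at 1.04 CPM and Ddx3y and Eif2s3y at 0. Of 8 endothelial genes only Cdh5 passed, at 1.24, 2.45 and 3.27 CPM, and Cldn5 was at 0. At 0.5 CPM the T and NK, B cell, neutrophil, erythroid and endothelial counts became 1, 1, 2, 1 and 3. The Y-linked count became 1 at 0.5 CPM and also without replicate 3. Without replicate 1 the endothelial count became 2, and at 2 CPM 0. The erythroid count became 1 without replicate 2, and the neutrophil count 1 without replicate 3. Of 23 chemokine receptor genes 8 passed, 4 at 2 CPM, led by Ackr3 (5.07 ± 0.30), Cxcr6 (4.05 ± 0.39), Cxcr4 (1.30 ± 0.46) and Ccr1 (0.961 ± 0.482 CPM per kilobase), and 7 of the 8 were highest in replicate 1. Complement genes passed in 11 of 17 cases, led by C1qb, C1qa, C2 (7.21 ± 0.96) and Clu (5.90 ± 1.22 CPM per kilobase). Of the 11, 9 were highest in replicate 1. C1qa and C1qb are also on the macrophage list, so the counts of the complement and macrophage lists overlap. Of all 11658 expressed genes 3943 were highest in replicate 1 and 4250 lowest in replicate 3. Fewer cells of a type and less RNA per cell cannot be told apart in such bulk libraries.

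Across the libraries most genes varied little. The median coefficient of variation of expressed genes was 6.25%, the common biological coefficient of variation was 0.0867, and 76 of 9147 genes with a mean of at least 10 CPM (0.831%) differed by over 2-fold between the highest and the lowest library. Without replicate 1, 2 or 3 the count of such genes was 32, 41 or 29. Of the 76 genes 42 were lowest in replicate 3, as were 4250 of all 11658 expressed genes. The 15 most uneven included the complement genes C1qa, C1qb and C1qc, Lyz2, Apoe and Arg1, the last with 21.4, 17.6 and 4.23 CPM, and also Basp1, Gng2, Cdk18, Enpp1 and Ctsc. All of these were highest in replicate 1 and lowest in replicate 3, the order of the macrophage sums. C1qa, C1qb, C1qc and Lyz2 are themselves members of the macrophage list, so their order is part of those sums. The part of macrophages in these differences was not tested. The other 4 had another order: Avil, an actin-binding villin relative, had 6.47, 37.3 and 7.20 CPM, Mest, an imprinted gene, 30.4, 109 and 58.0, Acsbg1 11.1, 18.3 and 5.44, and Dclk1 5.88, 18.3 and 16.3, each highest in replicate 2.

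Several gene groups differed together between libraries, against a background in which 3943, 4295 and 3420 of all expressed genes were highest and 3508, 3900 and 4250 lowest in replicates 1, 2 and 3. Small leucine-rich proteoglycans, which bind collagen fibrils, were lowest in replicate 1 for 8 of 8 expressed members, for example Dcn (decorin) with 93.3, 130 and 183 CPM and Lum (lumican) with 29.5, 69.9 and 68.6. The other leaders of this list, after Bgn, were Ogn with 74.9, 124 and 128 and Aspn with 58.9, 74.3 and 138 CPM. Hypoxia-induced genes were highest in replicate 1 for 19 of 20, as Egln3 with 253, 177 and 150, Slc2a1 with 438, 379 and 302 and P4ha1 with 407, 327 and 337 CPM, and glycolysis genes for 19 of 22. Interferon-induced genes were lowest in replicate 2 for 15 of 24 and highest in replicate 3 for 18 of 24, as Gbp2 with 141, 89.1 and 188 CPM. Isg15, with 54.2, 65.1 and 65.0 CPM, was an exception to both. The early-response list was highest in replicate 3 for 16 of 24. Basement membrane genes were highest in replicate 2 for 13 of 18, as Col4a1 with 84.5, 181 and 114 CPM. Ribosomal protein sums, at 59467, 60840 and 60353 CPM, showed the smallest relative spread of the lists plotted. The proteoglycan, hypoxia, interferon and early-response lists were written after values were seen. The labels name no batch for these libraries, and the part of tumour, sorting or library preparation in the differences was not tested.

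**Figure D5:**
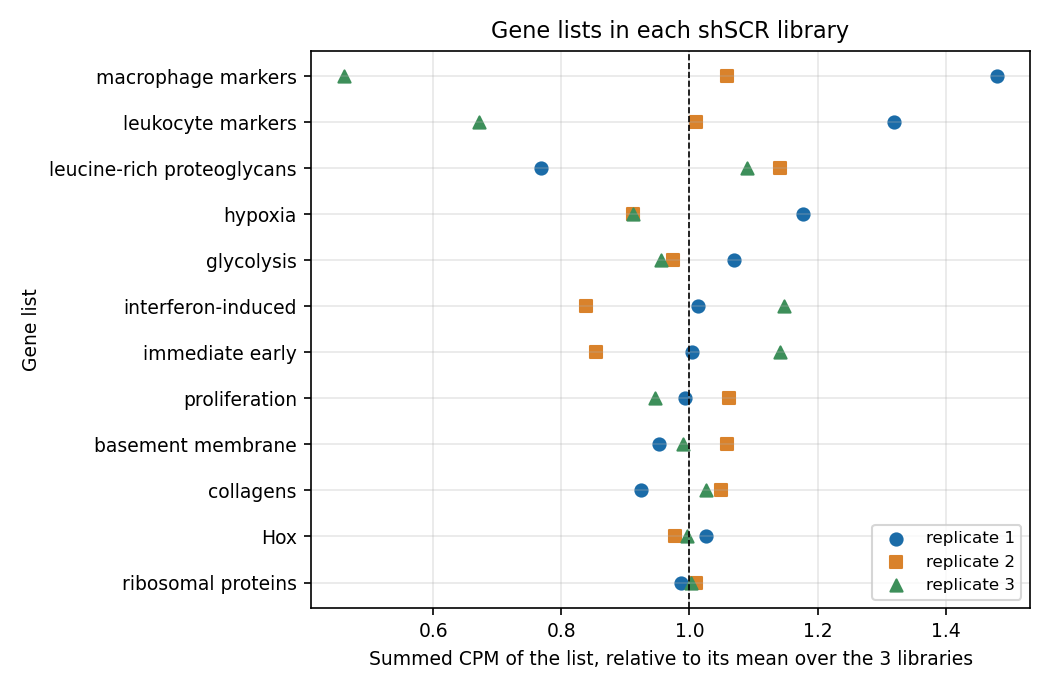
Summed CPM of 12 gene lists in each shSCR library, divided by the list's mean over the 3 libraries, with 1 marked by a dashed line. Macrophage markers spread most, with replicate 1 the highest and replicate 3 the lowest, and ribosomal protein and Hox genes least.

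All 13 mitochondrially encoded genes passed, led by mt-Co1 (6799 ± 736), mt-Cytb (3459 ± 477), mt-Atp8 (3210 ± 374) and mt-Nd1 (1486 ± 169 CPM per kilobase). Together they held 1.99%, 1.98% and 2.46% of counts in replicates 1, 2 and 3. Several of them have nuclear copies of the same sequence, which held counts that these shares leave out. How reads were divided between gene and copy was not tested, so these values are uncertain. mt-Co2 had 20.05 ± 8.45 CPM while the pseudogene Gm28661, which is 100% identical over 681 bases, had 4560 ± 566. For mt-Co3 and its identical copy Gm28437 the values were 785 ± 243 and 3208 ± 313 CPM, and for mt-Atp6 and Gm10925 370 ± 86.1 and 2799 ± 451. Rps27 had 11.1 ± 4.42 CPM against 365 ± 13.3 for Rps27rt, which is 98.8% identical over 345 bases. Annotated pseudogenes together held 2.00 ± 0.15% of counts.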

How the data were processed

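RNA was extracted with TRIzol from RFP-sorted tumour cells, and strand-specific mRNA libraries were made by BGI for DNBSEQ, per the labels' protocols. The deposited table gives an estimated count for each Ensembl gene ID. The authors obtained these with Salmon on mm10, per the submitters' processing notes, and the sources used here name neither versions nor the transcript annotation. All are whole numbers. Only the 3 shSCR columns of the table were used, with column totals of 19847860 to 20376554 counts.

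Counts were divided by the column total (CPM), and a gene was called expressed at 1 CPM or more in all 3 libraries. Names, positions and lengths (union of exons) came from GENCODE release M21 on GRCm38, which matched 35493 of 35727 IDs. Unmatched IDs held 0.0370% to 0.0386% of counts. Variation was estimated with edgeR 4.0.16 (R 4.3.3) with TMM factors, as checked on simulated counts. The promoter table is from RefSeq. Intervals are exact binomial and cover counting error only. Python 3.11.15, pandas 2.3.3, SciPy 1.17.1 and matplotlib 3.10.9 were used.

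The text names the 6 markers, the genes of the design, the 20 highest genes per kilobase, the 4 highest expressed members of each list described, members of other-cell lists at 0, the 15 most uneven genes, and the leading transcription factors and promoters; further members named in the text were chosen after their values were seen. Members and lists (61, and 7 added later) were chosen with earlier results of these data known. The alternatives were TMM scaling, other thresholds, other lengths, a total without mitochondrial genes, other promoter settings and each library left out in turn. Meg3 and H19 were not analysed here. The result of 1 gene that the rule names is not reported here.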

Additional observations from a re-analysis of the deposited data

How the results depend on the processing

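The number of expressed genes, the share of matrix genes and the common biological coefficient of variation stayed within 1.5 times the reported count, or within 1 SD of the reported share, under every alternative run for them. With mitochondrially encoded genes left out of the total, the shares of the 10 and 100 genes with the most counts became 7.48% and 22.3%, and that of ribosomal protein genes 6.15%. The identical nuclear copies Gm28661, Gm10925 and Gm28437 were kept in that total. The number of genes differing by over 2-fold became 135 at a mean of at least 5 CPM and 32 at 20 CPM, and 29 to 41 with 1 library left out, where fewer libraries are compared. With TATAA in place of TATAAA the share over expressed genes with a promoter became 2.13%. Ranks moved by more than their spread between libraries for 22 of 23 genes with the mean transcript length, 21 with no length and 20 with the principal transcript, and for at most 2 with a library left out. Among the 61 lists, the count of expressed members moved by over 1.5 times in 9 at 0.5 CPM and 3 at 2 CPM, and in at most 3 with a library left out. No paired analysis was possible because the values describe 1 group and no groups are compared. About 20 counts stand behind 1 CPM in a library, which limits what can be said of genes near the threshold.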
